A study of Mus musculus with 24 samples.

Results

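The transcripts of 8 genes that mark B lymphocytes were followed in whole carotid arteries of ovariectomized mice: Cd79a, Cd79b, Ms4a1, Pax5, Blk, Cd22, Fcer2a and Fcrla. The genes were chosen by name, as rows of the gene count tables whose mouse Ensembl identifier carries one of these symbols in GENCODE release M21. All 8 were found among the 55421 genes of the tables, and all 8 were among the 25056 genes kept by the filter on low counts. The choice was made knowing that B cell genes differed between the hormone groups, so the levels and fold changes of these 8 genes describe the arteries and are not an independent test of that difference.

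RNA was sequenced from 24 arteries of C57BL/6 wild type females, with an age of 9 weeks in the labels, 6 arteries in each of 4 groups. All mice were ovariectomized, which removes the main source of endogenous estrogens. The OVX group received a placebo. The E2 group received estradiol, the main estrogen of the reproductive years. The E4 group received estetrol, a natural estrogen of the fetal liver. The TAM group received tamoxifen, a drug that blocks or mimics estrogens depending on the tissue. The design text gives 3 weeks of treatment, whereas the study's methods give a shorter one. The treatment field of the E4 libraries reads placebo, and their group was taken from their titles. Each library is named here by its group and animal number. The numbers fall into an early series, up to 20, and a late series, from 24 on, and what separates the series is not given.

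A mature B cell carries an antigen receptor made of a membrane immunoglobulin and a pair of signalling chains. On antigen binding, kinases of the Src family, of which Blk is a B cell member, phosphorylate the chains. Co-receptors then raise or dampen the signal. The transcription factor Pax5 commits precursors to the B lineage and keeps them there. In a healthy artery, B cells are few and lie mainly in the adventitia and the surrounding fat and lymphoid tissue, so their transcripts are rare in RNA from a whole vessel. In such RNA, fewer B cells and less RNA per B cell cannot be told apart.

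The libraries held 24649523 to 64223858 counts. The 192 values of the 8 genes rested on 2 to 301 counts each, and only 2 of them, Pax5 in E4 C38 and Fcrla in E4 C20, were at or under 3 counts. Levels are given as CPM, counts relative to the size of the library, which was scaled by the trimmed mean of M-values (TMM). Smooth muscle and endothelial genes marked every library as artery: the summed CPM of the smooth muscle list (8 genes, among them Myh11 and Acta2) lay between 2360 and 8426, and that of the endothelial list (7 genes, among them Pecam1 and Cdh5) between 507 and 1140. One library, E2 C9, stood apart by T cell and thymocyte genes, with 205 CPM of Rag1, and OVX C5 and TAM C35 had little sympathetic ganglion RNA. Skeletal muscle genes, at a mean log2 CPM of 3.89 in OVX C2, were at most 0.73 in the other OVX libraries. E4 C20 (3.59 against at most 0.42), 3 E2 libraries and TAM C35 were high for them as well. The parathyroid gene Pth was above 0 in 3 libraries, with up to 71892 counts in E4 C38. The part of such tissue in the marker levels was not tested. The number of markers called against OVX is given with and without E2 C9, and with and without OVX C5 and TAM C35.

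Every one of the 8 genes was, on average, highest in the OVX arteries and lowest in the E4 arteries. The summed level of the 8 ran from 5.85 to 35.3 CPM in OVX, with a median of 15.6, from 5.79 to 15.6 CPM in E2, from 3.79 to 11.7 CPM in TAM and from 3.61 to 7.07 CPM in E4. The OVX group was the most uneven: OVX C3, C24 and C5 were the 3 highest libraries of the series, whereas OVX C2 lay at the level of the E4 libraries. The count column of OVX C2 is marked R2 in its header, as no other library's is, and what the mark stands for is not given in the sources used here. E2 C27 was the fourth, and the lowest 3 were E4 C38, C39 and TAM C32. None of the 8 separated all OVX libraries from all libraries of another group.

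**Figure D1:**
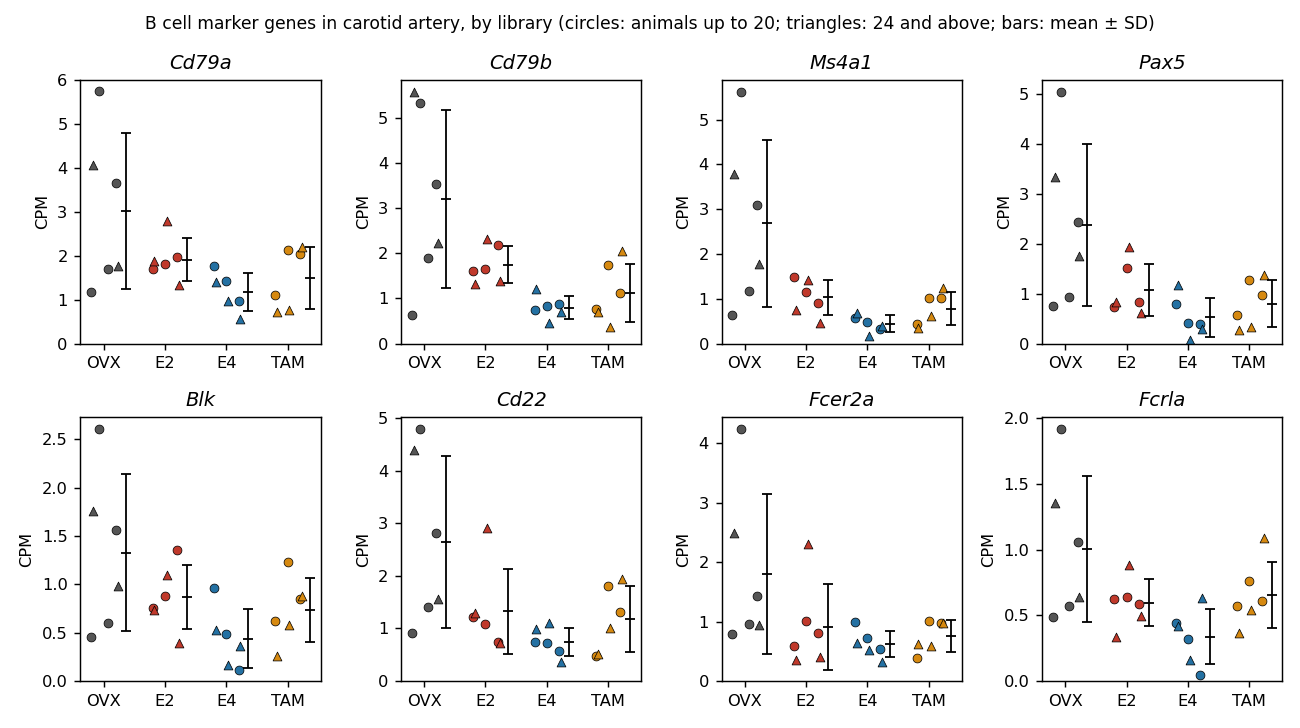
CPM (vertical axes, linear, starting at 0) of each of the 8 B cell marker genes in the 6 libraries of each group; each point is a library, circles are animals numbered up to 20 and triangles those from 24 on, and bars show the mean ± SD. The OVX points spread the most, the E4 points lie lowest, and for every gene at least 1 OVX library lies among the treated ones.

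Cd79a and Cd79b encode the signalling chains of the antigen receptor (Igα and Igβ). Cd79a (ENSMUSG00000003379) lies on the plus strand at chr7:24897381-24902197, and Cd79b (ENSMUSG00000040592) on the minus strand at chr11:106311341-106314762, both in GRCm38. Cd79a was at 1.18 CPM in OVX C2, 1.69 in C4, 1.76 in C25, 3.65 in C5, 4.06 in C24 and 5.75 in C3. The E4 libraries had 0.560 CPM in C39, 0.961 in C20, 0.972 in C38, 1.41 in C36, 1.43 in C19 and 1.76 in C16. Thus 4 of the 6 OVX libraries were above every E4 library and 2 were within their range. Across E2, Cd79a lay between 1.33 and 2.79 CPM, with a median of 1.85, and across TAM between 0.724 and 2.20 CPM, with a median of 1.57. Its mean was 3.01 ± 1.77 CPM in OVX and 1.18 ± 0.430 CPM in E4 (SD, n = 6 each).

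Cd79b was at 0.638 CPM in OVX C2, 1.89 in C4, 2.23 in C25, 3.54 in C5, 5.34 in C3 and 5.58 in C24. In E4 it was at 0.446 CPM in C38, 0.706 in C39, 0.741 in C16, 0.829 in C19, 0.867 in C20 and 1.20 in C36. All OVX libraries but C2 were above the highest E4 library. The E2 libraries lay between 1.33 and 2.31 CPM, entirely above the E4 range, and Cd79b was the only one of the 8 genes for which those groups did not overlap. Non-overlap with E4 lower was seen for 4.13% of all genes tested in that comparison. The TAM libraries spanned 0.358 to 2.04 CPM and overlapped every other group.

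Ms4a1, Cd22 and Fcer2a encode surface proteins of mature B cells. Ms4a1 (ENSMUSG00000024673, chr19:11249675-11266241, minus strand) encodes CD20, the target of depleting antibodies. It showed the lowest E4 level relative to OVX among the 8. The OVX libraries read 0.638 CPM in C2, 1.18 in C4, 1.78 in C25, 3.10 in C5, 3.78 in C24 and 5.62 in C3, and the E4 libraries 0.162 in C38, 0.328 in C20, 0.389 in C39, 0.484 in C19, 0.577 in C16 and 0.693 in C36. Only OVX C2 fell within the E4 range. The E2 libraries had 0.468 to 1.48 CPM (median 1.04) and the TAM libraries 0.341 to 1.23 CPM (median 0.814), both below 4 of the 6 OVX libraries. Ms4a1 and Cd79a had the largest and the smallest fold change in E4. The ratio of their CPM, which restates those values within each library, had a median of 0.890 in OVX (0.540 to 1.01), 0.489 in E2 (0.352 to 0.877), 0.492 in TAM (0.391 to 0.794) and 0.340 in E4 (0.167 to 0.696). These ranges overlap, and the ratio was not tested. The ratio of Fcrla to Cd79a had a median of 0.497 in TAM (0.298 to 0.706), 0.336 in OVX (0.289 to 0.413), 0.333 in E2 (0.180 to 0.370) and 0.238 in E4 (0.0488 to 1.13). The E4 range contains the others, its low end, in E4 C20, rests on 2 counts of Fcrla, and this ratio was not tested either.

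Cd22 (ENSMUSG00000030577, chr7:30865402-30880342, minus strand) encodes an inhibitory lectin that recruits phosphatases to the receptor. Its level ran from 0.919 to 4.80 CPM in OVX, with a median of 2.18, and from 0.365 to 1.09 CPM in E4, with a median of 0.728. OVX C2 was the only OVX library below the highest E4 library. In E2 the library C27 had 2.92 CPM, against 0.715 to 1.29 in the other 5, and in TAM the libraries ran from 0.482 to 1.95 CPM. Fcer2a (ENSMUSG00000005540, chr8:3681737-3694175, minus strand) encodes CD23, the low-affinity receptor for immunoglobulin E, found on follicular B cells. It spanned 0.788 to 4.24 CPM in OVX and 0.316 to 0.988 CPM in E4, and 3 of 6 OVX libraries were above all E4 libraries, the fewest of the 8 genes. E2 C27 was again high for Fcer2a, at 2.31 CPM against 0.359 to 1.02 in the other E2 libraries, while TAM ranged from 0.379 to 1.003 CPM.

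Pax5 (ENSMUSG00000014030, chr4:44524757-44710487, minus strand) was at 0.750 to 5.03 CPM in OVX, with a median of 2.09. It was at 0.0810 to 1.18 CPM in E4, with a median of 0.407. The E4 minimum, in C38, rests on 2 counts. Pax5 had 0.616 to 1.93 CPM in E2 and 0.277 to 1.37 CPM in TAM. Blk (ENSMUSG00000014453, chr14:63372836-63417037, minus strand) was at 0.450 to 2.60 CPM in OVX, 0.394 to 1.35 in E2, 0.255 to 1.23 in TAM and 0.117 to 0.961 in E4. Fcrla (ENSMUSG00000038421, chr1:170917576-170927583, minus strand) encodes an Fc receptor-like protein that stays inside the cell. It was the rarest of the 8 in OVX by CPM, at 0.488 to 1.92 CPM, and had 0.337 to 0.881 CPM in E2, 0.362 to 1.09 in TAM and 0.0469 to 0.633 in E4. Fcrla was the one gene whose mean was higher in TAM (0.654 ± 0.249 CPM) than in E2 (0.594 ± 0.180 CPM, SD, n = 6 each). For the other 7 the means fell in the order OVX, E2, TAM, E4. Antisense transcripts are annotated over Pax5 and Cd22, and since the strand setting of the counting is not given, reads of each cannot be told apart from theirs.

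Per kilobase of exon, the receptor chains were the most abundant of the 8. Cd79a was highest in 18 of the 24 libraries and Cd79b in the other 6, whereas Pax5, whose exons sum to 8853 bases, was last in 22. In OVX the means per kilobase were 2.07 CPM for Cd79a and 2.24 for Cd79b, against 0.268 for Pax5.

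The sequences just upstream of start sites of these genes were examined because the levels of the 8 genes went together across libraries. RefSeq start sites in GRCm38.p6 were matched for 5 of the 8 genes (Cd79a, Cd22, Fcer2a, Pax5 and Fcrla), giving 7 windows of 250 bases. Shown here, 5′ to 3′, are the stretches outside annotated exons in the windows of a receptor chain, a surface lectin and the intracellular Fcrla. The Cd22 stretch lies upstream of its RefSeq start but within the gene as annotated in GENCODE, downstream of an annotated exon. Capitals mark the E-box bound by E2A in Cd79a and Fcrla and the EBF1 palindrome in Cd22. E2A and EBF1 are transcription factors of early B cell development.
Cd79a, chr7:24897247-24897380, plus strand: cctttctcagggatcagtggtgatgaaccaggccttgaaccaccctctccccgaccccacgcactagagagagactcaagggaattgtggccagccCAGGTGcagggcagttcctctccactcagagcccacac
Cd22, chr7:30879029-30879176, minus strand: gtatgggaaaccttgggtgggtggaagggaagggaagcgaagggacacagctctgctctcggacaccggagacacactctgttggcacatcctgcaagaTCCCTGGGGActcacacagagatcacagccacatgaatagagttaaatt
Fcrla, chr1:170927584-170927833, minus strand: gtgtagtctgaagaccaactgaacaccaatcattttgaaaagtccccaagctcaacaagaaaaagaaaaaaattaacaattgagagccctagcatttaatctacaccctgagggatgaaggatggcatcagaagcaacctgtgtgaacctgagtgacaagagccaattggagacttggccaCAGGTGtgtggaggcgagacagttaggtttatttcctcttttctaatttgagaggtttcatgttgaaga
Both strands were searched. The E-box CAGGTG was found in 4 of the 5 genes (bases 154 to 149 upstream of the start in Cd79a, 69 to 64 in Fcrla) and in 4 of the 7 windows, against 17.2% of all 32851 windows. The EBF1 palindrome, TCCC and GGGA set 2 bases apart, was found in Cd22 only, 49 to 40 bases upstream, against 0.779% of all windows. The octamer ATGCAAAT (1.6% of windows) and the estrogen response element, GGTCA and TGACC set 3 bases apart (0.0639% of windows) were in none of the 7. A match is a description of the letters, and binding was not measured here.

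Against OVX, the fitted fold changes of all 8 genes were below 0 with each of the 3 treatments. In E4, all 8 were called lower (adjusted p under 0.05 and a log2 fold change beyond 1 in size), where 1.68% of all genes tested were called lower. Their median log2 fold change was -1.70, and the median of all genes -0.01. The sizes ran from -2.57 ± 0.46 (SE) for Ms4a1, a level 5.93-fold lower, to -1.34 ± 0.37 for Cd79a, 2.53-fold lower. Between them lay Pax5 at -2.12 ± 0.52, Cd79b at -1.98 ± 0.42 and Cd22 at -1.84 ± 0.45. The other 3, Blk, Fcrla and Fcer2a, lay between -1.57 and -1.52. This count is tied to the choice of the genes and to OVX C3: without that library 5 of 8 were called. Without OVX C2, all 8 were called, with a median of -1.88.

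Counts at an unadjusted p under 0.05 are given where no gene was called, and they stand against a large background: in edgeR that p was reached by 16% of all genes tested for E2 against OVX, 36.3% for E4 against OVX, 21% for TAM against OVX, 30.2% for E4 against E2, 21.2% for TAM against E2 and 9.12% for TAM against E4.

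In E2, none of the 8 was called, where 0.347% of genes were called lower. The edgeR test gave an unadjusted p under 0.05 for 5 of them, and DESeq2 called 1. No share of all genes called by DESeq2 is given, here or below, and the edgeR shares do not stand in for it. The median log2 fold change was -0.92, from -1.37 ± 0.42 for Ms4a1 and -1.13 ± 0.49 for Pax5 to -0.65 ± 0.35 for Cd79a and -0.60 ± 0.43 for Blk. Between 2 and 4 OVX libraries lay above the highest E2 library, depending on the gene.

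In TAM, 2 of the 8 were called, Ms4a1 at -1.79 ± 0.43 (adjusted p = 0.0342, edgeR) and Cd79b at -1.51 ± 0.40 (adjusted p = 0.0487), where 0.196% of genes were called lower. Pax5 had a larger fold change than Cd79b, at -1.57 ± 0.49, with a larger error. The median over the 8 was -1.21, and the smallest were Blk at -0.84 ± 0.43 and Fcrla at -0.61 ± 0.38. Both calls sat close to the threshold: leaving out any one of OVX C3, C5 or C24 or TAM C11, C12, C13, C32 or C33 left 0 calls, and the fit without E2 C9 left 1. The fit without OVX C5 and TAM C35 left 2, with a median of -1.36, and DESeq2 called 3. All 3 comparisons share the same OVX libraries, so their likeness is not evidence from separate animals.

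**Figure D2:**
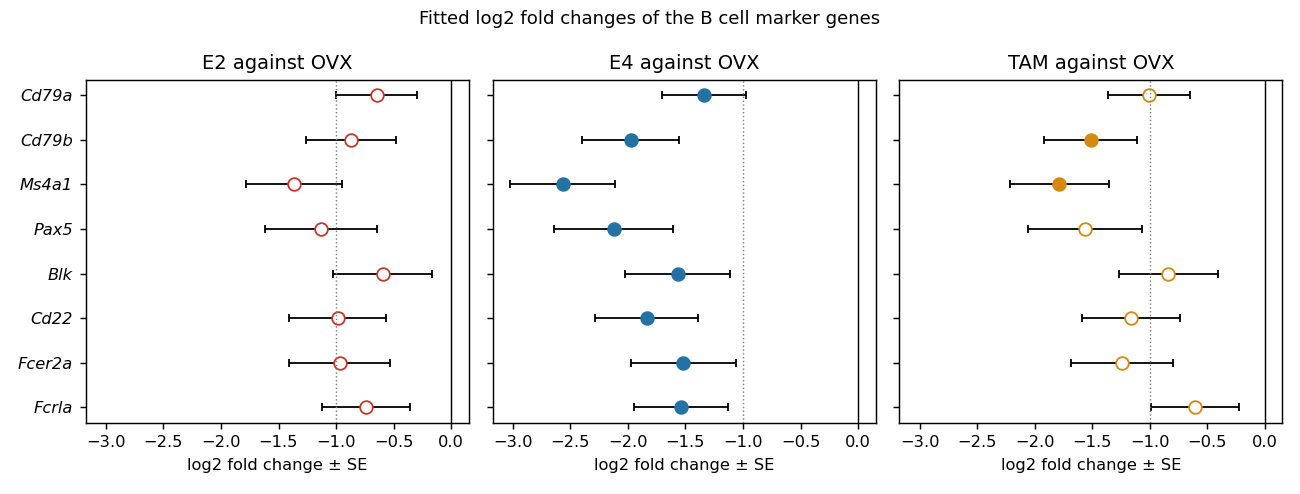
Fitted log2 fold change against OVX (horizontal axis) of each of the 8 genes in E2, E4 and TAM; points are estimates, bars their SE, filled points are genes called and the dotted line marks -1. All 24 points lie below 0, the E4 points farthest, with Ms4a1 lowest in each panel.

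The treated groups were also compared with each other. E4 was below E2 for all 8 genes, with a median log2 difference of -0.91, from -1.20 ± 0.46 for Ms4a1 to -0.55 ± 0.46 for Fcer2a. None was called, where 2.27% of genes were called lower. For 3 of the 8 the unadjusted p was under 0.05, and DESeq2 called 2. TAM was below E2 for 7 genes and above it for Fcrla, with a median of -0.32, none called (1.39% of genes called lower) and none with an unadjusted p under 0.05 in edgeR or a call in DESeq2. TAM was above E4 for all 8, with a median of 0.61, from 0.27 ± 0.47 for Fcer2a to 0.93 ± 0.41 for Fcrla. No gene was called in that comparison, where 0.0758% of genes were called higher. The unadjusted p was under 0.05 for 1, and DESeq2 called 0. Between the neighbours E2 and TAM, and TAM and E4, no difference of the 8 genes was thus called after adjustment, which does not show that they were alike.

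The direction was the same in both series of animal numbers. The median log2 fold change of the 8 was -0.94 in the early and -0.87 in the late series for E2 against OVX, -1.83 and -1.88 for E4 against OVX, and -1.14 and -1.30 for TAM against OVX. With 2 to 4 libraries a group in each series, only 1 gene was called in E4 in the early series and 0 in the late. The difference between series was tested as an interaction in edgeR, and the smallest adjusted p over the 8 genes and 6 comparisons was 0.602.

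The 8 genes varied together from library to library. Over their 28 pairs, Pearson's r of log2 CPM had a median of 0.829 (0.645 to 0.934) across 24 libraries, and 0.745 (0.485 to 0.881) after each group's mean was taken away. All points share library size and scaling. OVX C3 ranked first for 7 of the 8 genes and OVX C24 for Cd79b, and both, with OVX C5, were among the top 4 libraries for all 8. The map of log2 CPM by library shows these columns beside the others.

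**Figure D3:**
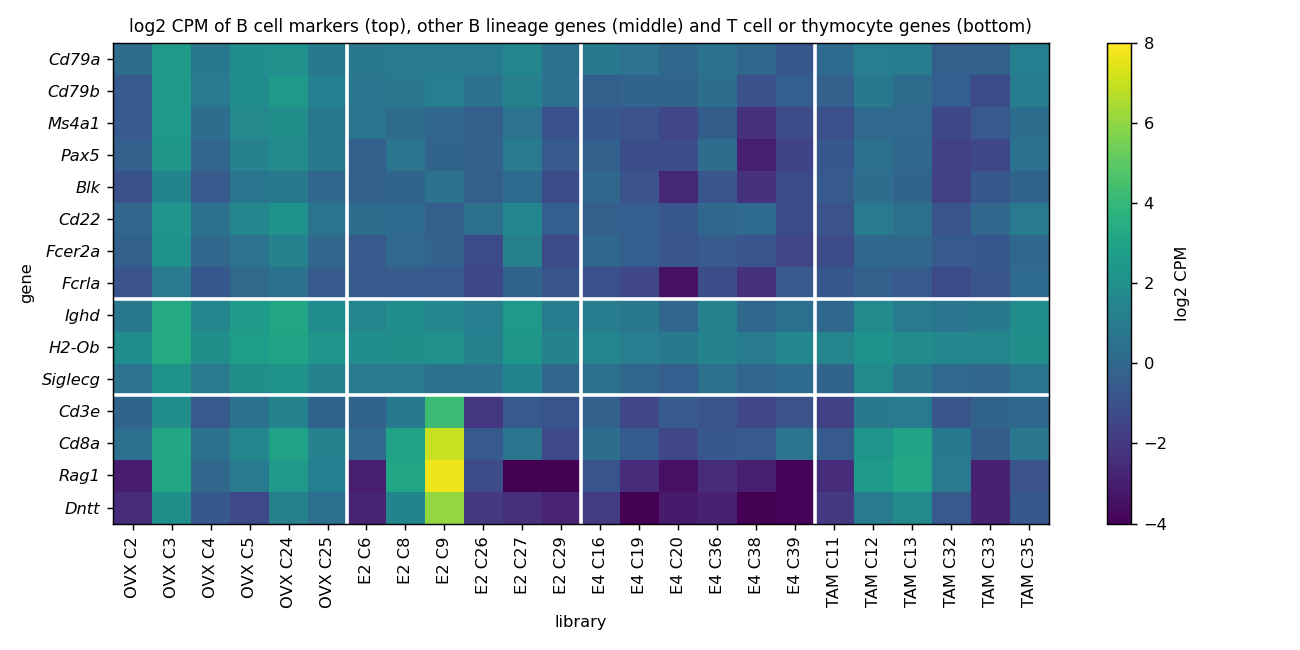
Log2 CPM (colour, from -4 to 8, values beyond drawn at the ends) of 15 genes (rows) in the 24 libraries (columns, grouped as OVX, E2, E4 and TAM): the 8 markers on top, the other B lineage genes Ighd, H2-Ob and Siglecg in the middle, and the T cell or thymocyte genes Cd3e, Cd8a, Rag1 and Dntt at the bottom. Columns OVX C3, C24 and C5 are brightest in the upper blocks, and E2 C9 is brightest in the bottom block but not in the upper ones.

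Which other genes followed this pattern was asked of 19522 genes with a mean of at least 1 CPM. The 10 with the highest Pearson's r to the mean log2 CPM of the 8, over 24 libraries, were Ighd (0.969), H2-Ob (0.938), Siglecg (0.935), Gimap3 (0.861), Mrpl1 (0.815), Btla (0.808), Treml2 (0.803), Osgepl1 (0.795), Zfp759 (0.793) and Haao (0.790). Ighd encodes the heavy chain of immunoglobulin D, carried by naive B cells, H2-Ob a chain of the antigen-loading regulator DO and Siglecg an inhibitory lectin. Within groups the first 3 kept their order, and 5 of the 10 stayed among the top 10. Ranked by Spearman's rho over the 24 libraries, 4 of the 10 stayed there, and Haao was 328th. Mrpl1 and Osgepl1, genes of mitochondrial translation and tRNA modification at 17.6 and 14.6 CPM, ranked 20th and 75th within groups. Treml2, Zfp759 and Haao ranked 23rd, 88th and 53rd there.

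Ighd was at 5.47 ± 3.36 CPM in OVX, 3.13 ± 1.28 in E2, 2.21 ± 1.05 in TAM and 1.53 ± 0.565 in E4 (SD, n = 6 each), the group order of 7 of the markers. H2-Ob was at 6.16 ± 2.68 CPM in OVX, 3.58 ± 1.01 in E2, 3.34 ± 0.704 in TAM and 2.36 ± 0.492 in E4, and Siglecg at 3.04 ± 1.21, 1.68 ± 0.567, 1.54 ± 0.856 and 1.06 ± 0.254 CPM. These 3 genes were chosen for following the markers over the same libraries, so their group differences restate that choice and no p is given for them. The log2 fold changes of E4 against OVX were -1.82 ± 0.40 (SE) for Ighd, -1.38 ± 0.24 for H2-Ob and -1.51 ± 0.32 for Siglecg, and those of E2 and TAM lay between -1.31 and -0.78.

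Further genes of B cell receptor signalling formed a list of 16. None was called in E4 (10 with an unadjusted p under 0.05 in edgeR, where 36.3% of all genes had one, 0 called by DESeq2), and the median log2 fold change was -0.31. In E2 that median was 0.30, with 14 of 16 above 0 and none called (8 with an unadjusted p under 0.05 in edgeR, 0 called by DESeq2). Many of these genes, such as Syk, Btk, Blnk, Lyn and Plcg2, are also used by macrophages, whose list (10 genes) had a median of 0.87 in E2, with 10 of 10 above 0, and of -0.16 in E4 (0.0055 without OVX C5 and TAM C35). In E4 against E2, 5 of the 16 signalling genes were called lower, Btk, Blnk, Vav1, Bank1 and Ptpn6 (4 called by DESeq2), with a median of -0.76, where 2.27% of all genes were called lower. The macrophage list's summed level was 1067 to 1609 CPM in E2 against 626 to 1139 in OVX and 455 to 849 in E4. The part of macrophage transcripts in the values of the signalling list was not tested.

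Among 13 transcription factors of the B lineage the median log2 fold change was -0.18 in E4, with 1 called lower, where 1.68% of all genes were, 1 called higher in edgeR and 4 called by DESeq2. Spib, an Ets factor of B cells and plasmacytoid dendritic cells, fell by 2.70 ± 0.46 (adjusted p = 0.000685). Irf4, which acts in activated B cells, plasma cells, T cells and macrophages, rose by 1.56 ± 0.30 in E4 (adjusted p = 0.00151) and by 1.53 ± 0.30 in E2 (adjusted p = 0.00253), where 0.83% and 0.922% of all genes were called higher. Pou2af1, a coactivator of octamer factors, had -1.10 ± 0.41 in E4 (adjusted p = 0.0568). Ebf1 did not share the pattern of the markers: it was at 66.8 ± 9.49 CPM in OVX and 80.9 ± 2.99 CPM in E4, a log2 difference of 0.28 ± 0.09 (adjusted p = 0.0253, below the size needed for a call). Ebf1 is also expressed in fat and in mural cells, and its level here was over that of any marker in every library.

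The surface receptor and homing list was lower in E4 and not uniformly so in E2. All 16 tested genes were below OVX in E4, with a median log2 fold change of -1.17, and 8 were called lower, where 1.68% of all genes were. Fcrl1, an Fc receptor-like protein of B cells, fell by 2.61 ± 0.49 (adjusted p = 0.00143), Fcmr, the receptor for immunoglobulin M, by 2.07 ± 0.54 (adjusted p = 0.0105) and Tnfrsf13c, the receptor for the survival factor BAFF, by 1.94 ± 0.47 (adjusted p = 0.00655). Receptors for homing to lymphoid follicles and T zones fell as well, Cxcr5 by 1.45 ± 0.34 (adjusted p = 0.00525) and Ccr7 by 1.53 ± 0.47 (adjusted p = 0.0242). The remaining 3 called genes were Btla, H2-Ob and H2-Oa. Btla and H2-Ob are among the 10 genes most like the markers, so their calls restate that likeness. With TAM, all 16 were also below OVX, with a median of -0.67, but none was called (11 with an unadjusted p under 0.05, 2 called by DESeq2). With E2, 8 were below and 8 above, with a median of -0.19 (-0.62 without E2 C9) and none called (9 with an unadjusted p under 0.05, 0 called by DESeq2). The summed level ran from 89.1 to 134 CPM in E2 and from 64.2 to 104 CPM in OVX, ranges that overlap. In E4 against E2, 6 were called lower, where 2.27% of all genes were: Ly86, Cd83, Ly6d, Cd37, Fcrl1 and Fcgr2b. In that comparison 7 of the 10 macrophage genes were also called lower. The part of macrophage transcripts in this list was not tested.

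Of 8 immunoglobulin constant region genes tested, 4 were called lower in E4, where 1.68% of all genes were, with a list median of -1.71. These were Ighd and the lambda light chain genes Iglc1 (-3.76 ± 0.95, adjusted p = 0.00851), Iglc2 (-2.66 ± 0.63, adjusted p = 0.0056) and Iglc3 (-1.61 ± 0.56, adjusted p = 0.0419), which are close copies and may share reads. The call of Ighd, the gene most like the markers, restates that likeness. Ighm, the heavy chain of immunoglobulin M, was the most abundant, at 32.4 ± 9.76 CPM in OVX, 36.8 ± 12.7 in E2, 20.8 ± 3.60 in TAM and 17.9 ± 4.44 in E4. Ighm had a log2 fold change of -0.86 ± 0.22 in E4 (adjusted p = 0.00817, below the size needed for a call) and of 0.18 ± 0.21 in E2. Without E2 C9, which had 59.0 CPM, Ighm was at 32.4 ± 7.31 CPM in E2 (SD, n = 5), with a log2 fold change of -0.00088 ± 0.20. Igkc, the kappa light chain, had -1.53 ± 0.56 in E4 (adjusted p = 0.0514, and 0.0321 in the fit without E2 C9). Of the plasma cell genes, 1 of 7 was called lower in E4, Tnfrsf17, the receptor BCMA, at -1.32 ± 0.39 (adjusted p = 0.0203), with a list median of -0.45, and Jchain, which joins immunoglobulin polymers, had -0.45 ± 0.55 (adjusted p = 0.581). Cr2, the complement receptor of follicular and marginal zone B cells, had -0.85 ± 0.45 in E4 (adjusted p = 0.177) and -1.29 ± 0.45 in TAM (adjusted p = 0.108).

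**Figure D4:**
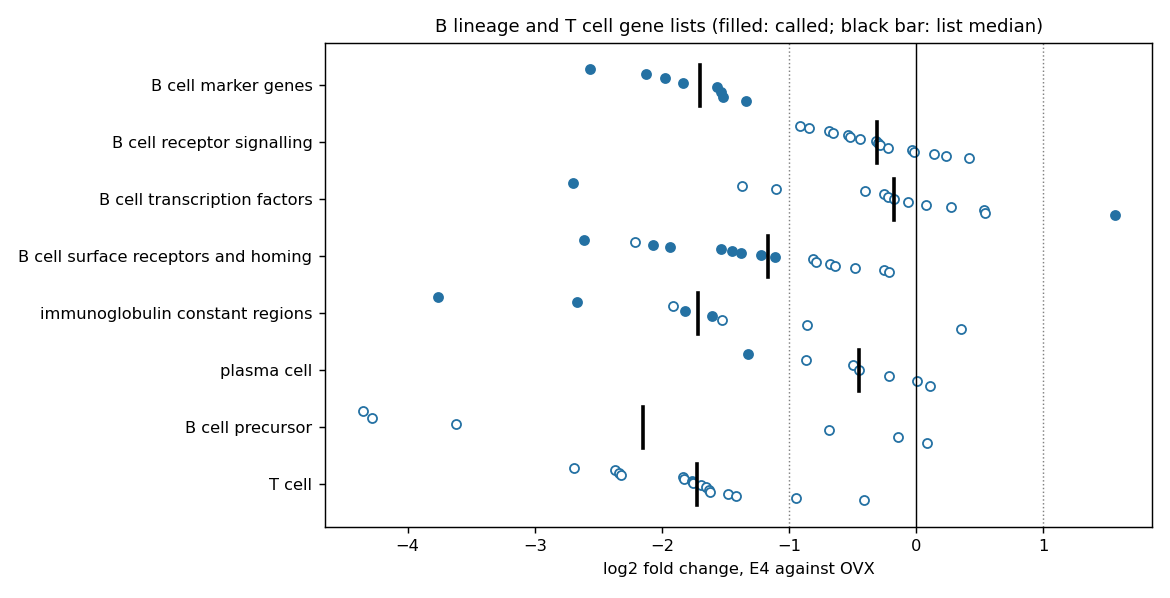
Log2 fold change of E4 against OVX (horizontal axis) for each tested gene of 7 B lineage lists and the T cell list (rows); each circle is a gene, filled where called, the black bar is the list's median and dotted lines mark -1 and 1. The markers, surface receptors, immunoglobulin, precursor and T cell lists have medians below -1, the signalling, transcription factor and plasma cell lists have medians between -0.45 and -0.18, and Irf4 is the filled point on the right.

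Transcripts of T cells were also lower in E4 than in OVX. The summed level of 16 T cell genes was 25.7 to 94.2 CPM in OVX and 15.6 to 22.9 CPM in E4. In E2 it was 17.6 to 700.5 CPM, with the maximum in C9, and in TAM 18.5 to 68.9 CPM. In E4 against OVX, an unadjusted p under 0.05 in edgeR was reached by 6 of the 16, where 36.3% of all genes reached it. All 16 were below OVX in E4, with a median log2 fold change of -1.73. In the fit of all libraries edgeR called 1 of them, Cd28 (-1.76 ± 0.56, adjusted p = 0.0292), and DESeq2 called 4, whereas edgeR called 14 of the 16 in the fit without E2 C9. Of all genes, 1.68% were called lower with that library and 1.84% without it. In E2, the T cell median was 1.499 with C9 and -0.86 without it, whereas that of the 8 B cell genes was -0.92 with it and -0.90 without it. C9 had 9.36 CPM summed over the 8, within the range of the other E2 libraries. Rag1 and Dntt, which recombine and extend receptor genes in precursors of both lineages, were at 205 and 65.5 CPM in E2 C9, together with 128 CPM of Cd8a and 61.3 CPM of Cd4, while Rag1 was at 8.53 CPM at most in OVX. The B cell precursor list, 6 tested genes that include Rag1 and Dntt, had a median log2 fold change of -2.15 in E4 with none called (3 with an unadjusted p under 0.05 in edgeR, 0 called by DESeq2) and 2 called in the fit without E2 C9.

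**Figure D5:**
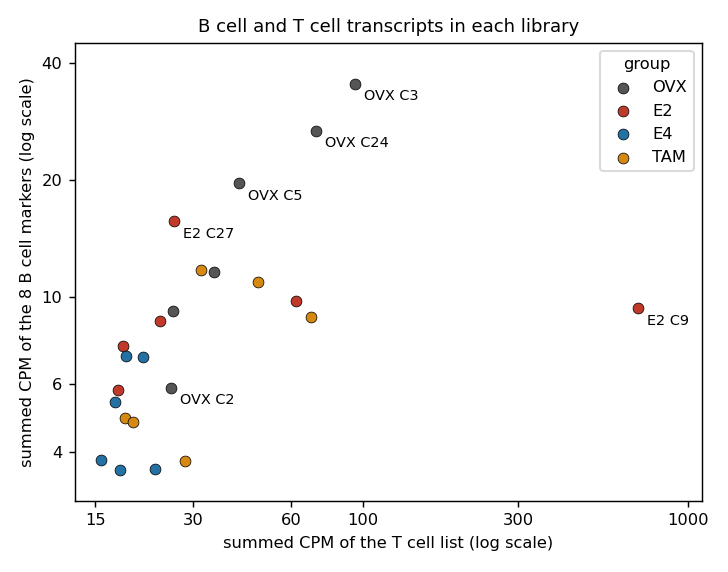
Summed CPM of the 8 B cell markers (vertical axis, log scale) against summed CPM of the 16 T cell genes (horizontal axis, log scale), one point per library coloured by group. OVX C3, C24 and C5 lie high on both axes, E4 libraries lie low on both, and E2 C9 is far right at 700.5 CPM with 9.36 CPM of B cell markers.

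A list of 12 genes for lymph node stroma and high endothelial venules had 6 tested: Cxcl13, Ccl21a, Ccl19, Fut7, Ltb and Lta. Ltb was 13th of 19522 genes in likeness to the markers (Pearson's r 0.788). The list is thus not separate from the marker pattern and is not taken as a measure of stroma alone. The summed level of the list was 12.4 to 24.4 CPM in OVX, 8.63 to 19.1 in E2, 12.5 to 15.8 in TAM and 8.96 to 14.9 in E4. The medians of its log2 fold changes against OVX were -0.24, -0.38 and -0.67 in E2, TAM and E4, with none called (3 with an unadjusted p under 0.05 in E4 in edgeR, 1 called by DESeq2). Glycam1 and Chst4, defining genes of the high endothelial venules of lymph nodes, had at most 2 counts in any library. Madcam1, an adhesion molecule of gut and lymphoid venules, had up to 16 counts and was at 0 in 2 libraries, and Tnfsf11, the cytokine RANKL, had up to 12 and was at 0 in 1. All 4 were under the filter on low counts.

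Red cell, fibroblast, ganglion, dendritic cell, adipocyte and neutrophil transcripts were measured beside the markers. The 5 red cell genes, for globin chains and heme synthesis, summed to 3387 to 28201 CPM in OVX, 4259 to 19958 in E2, 3742 to 7474 in E4 and 1899 to 5028 in TAM. OVX C3, C5 and C24, the libraries highest in B cell markers, were also the highest of OVX in red cell genes, and OVX C2 was the lowest in both. All 5 red cell genes were below OVX in E4, with a median log2 fold change of -0.90 (0 called by edgeR, 3 with an unadjusted p under 0.05, 2 called by DESeq2), and all 5 were called lower in TAM, where 0.196% of all genes were, with a median of -1.94. In E2 their median was 0.05, while that of the B cell markers was -0.92. The 6 fibroblast genes had a median of -0.61 in E4, with none called (6 with an unadjusted p under 0.05, 0 called by DESeq2), and summed to 2538 to 4128 CPM in E4 against 3730 to 5725 in OVX. The 9 genes of the sympathetic ganglion list were all above OVX in E4, with a median of 0.87 (0.62 without OVX C5 and TAM C35), 1 called higher by edgeR, where 0.83% of all genes were, 1 with an unadjusted p under 0.05 and 0 called by DESeq2. They summed to 5304 to 10497 CPM in E4 against 43.8 to 6976 in OVX, or 3297 to 6976 without OVX C5. The dendritic cell list had a median of -0.40 in E4, with 6 of 7 genes below OVX and 1 called lower, where 1.68% of all genes were. It summed to 39.5 to 46.8 CPM in E4 against 50.3 to 55.6 in OVX. The adipocyte list had -0.26, with 5 of 7 below OVX and 2 called lower, against the same share. All 9 neutrophil genes were below OVX in E4, with a median of -0.70 and no call. The part of T cells, red cells, fibroblasts, ganglion, dendritic cells, adipocytes, neutrophils and lymphoid tissue beside the artery in the marker levels was not tested.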

How the data were processed

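RNA of 24 uninjured carotid arteries was sequenced in pairs of reads from a stranded library kit. The authors deposited 1 table of estimated counts per gene and library, not normalized. The submitters' processing notes name bcl2fastq 2.17, Trim Galore, Bowtie2, featureCounts and the builds mm10 and GRCm38, and the strand setting is not given in the sources used here. Some counts carry decimals, and all were rounded to whole numbers. Values of overlapping genes may share reads.

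Names and positions come from GENCODE M21, which held 55240 of the 55421 identifiers. Genes passing filterByExpr were scaled by TMM and tested in 1 quasi-likelihood fit of all 24 libraries with edgeR 4.0.16 (R 4.3.3), 6 comparisons, adjusted by the Benjamini-Hochberg method within each. A gene was called where its adjusted p was under 0.05 and its log2 fold change beyond 1 in size. Log2 CPM used a prior count of 2. DESeq2 1.42.0, other scaling, no filter, other sets of libraries and the leaving out of each library were alternatives. Scripts were tested on simulated data. The depths of 24649523 to 64223858 counts put 1 count at a few hundredths of a CPM. Groups came from titles. The study's methods place the OVX, E2 and E4 libraries in 1 experiment, and p-values measure the spread between these arteries.

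The 8 genes and all lists were chosen with earlier results of these data known. Named genes were the 8, 7 further B lineage genes (Cr2, Pou2af1, Ebf1, Cxcr5, Ighm, Igkc, Jchain), B lineage list genes called against OVX, and the 10 genes most like the mean of the 8. Of the genes called in the lists of other cell types, only some are named. Sequences are RefSeq's, from GRCm38.p6. No deposited column was left unused. A few genes of the lists and of the likeness ranking are not reported here and enter no list count.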

Additional observations from a re-analysis of the deposited data

Results flagged for a closer look

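In groups of 6, a library was singled out where the gap between it and its nearest neighbour took more than 0.625 of the group's range. Among 180 such groups 25 were singled out, where 9 would be for independent groups of normally distributed values. These groups share libraries and hold genes that go together, so 25 cannot be set against 9. E2 C27 was high for B cell genes, with 2.92 CPM of Cd22, 2.31 of Fcer2a and 1.82 of Cr2. E2 C9 was high for genes of T cells, thymocytes and secreted immunoglobulin, with 205 CPM of Rag1, 65.5 of Dntt, 128 of Cd8a, 61.3 of Cd4, 18.4 of Cd3e, 3.79 of Treml2, 11.1 of Igkc and 5.88 of Jchain. OVX C24 had 2.39 CPM of Jchain, and OVX C3 had 6.72 CPM of Btla. TAM C12 was high for Siglecg at 3.14 CPM, for Treml2 at 1.65 CPM and for Zfp759 at 6.58 CPM. E4 C16 was high for Btla at 2.20 CPM, for Rag1 at 0.494 CPM and for the B cell precursor list, at a mean log2 CPM of -1.36. OVX C5 had the highest mean log2 CPM of its group for the plasma cell list (2.23), the endothelial list (6.48) and the macrophage list (5.96), and by far the lowest for the sympathetic ganglion list (1.58). TAM C35 was likewise low for the ganglion list, at 4.37, and E4 C39 was high for the endothelial list, at 6.49.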

How the results depend on the processing

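The median log2 fold change of the 8 genes kept its sign in all 6 comparisons under every alternative run. Leaving out each library gave medians of -1.18 to -0.60 for E2, -1.89 to -1.43 for E4 and -1.37 to -0.86 for TAM against OVX. The number of genes called moved more. For E2 against OVX it was 1 with DESeq2 and 0 to 1 with libraries left out (1 without OVX C2, OVX C4 or E2 C27). It was 0 without E2 C9 and 0 without OVX C5 and TAM C35. For E4 against OVX it was 1 with animals up to 20 only, 0 with those from 24 on and 5 to 8 with libraries left out (5 without OVX C3, 8 without E2 C9, and 8 without OVX C5 and TAM C35). For TAM against OVX it was 0 without the filter, with 2 groups in the fit and in either number series, 1 with the series as a covariate or without E2 C9, and 0 to 2 with libraries left out. It was 2 without OVX C5 and TAM C35 and 3 with DESeq2. For E4 against E2 it was 2 with DESeq2 or 2 groups in the fit, 1 without OVX C5 and TAM C35, and 0 to 1 with libraries left out (1 without E2 C29). Reversals concerned uncalled differences of TAM against E2: Cd22 was at 0.23 with animals up to 20 only and between -0.38 and 0.22 with libraries left out, Fcer2a between -0.44 and 0.26, and Fcrla between -0.062 and 0.28; the positive ends of Cd22 and Fcer2a came without E2 C27, and the negative end of Fcrla without TAM C35 (with or without OVX C5). The cause was not tested, beyond the smaller number of libraries in the series. No paired analysis was possible because no animal number occurs in more than 1 group. The lists were also fitted without E2 C9 and without OVX C5 and TAM C35, both chosen after seeing the data: in E4 against OVX the B cell precursor list had 2 calls without E2 C9 against 0 with it, the other B lineage lists moved by at most 1 call, and the T cell list had 14 calls without E2 C9 against 1 with it. The low counts limit the markers most in E4, where the lowest value is 2 counts.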
